A study of Mus musculus with 45 samples.

Results

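Glycolysis enzymes are taken here as 10 genes matched by symbol, the glucose transporter Slc2a1, the hexokinases Hk1 and Hk2, the phosphoglucose isomerase Gpi1, the phosphofructokinase subunits Pfkl and Pfkp, the aldolase Aldoa, the phosphoglycerate kinase Pgk1, the pyruvate kinase Pkm and the lactate dehydrogenase subunit Ldha. They are 10 of the 55401 genes in the tables, and they take up 11 rows because the symbol Aldoa names a second, shorter row upstream of the main one, which was kept apart. RNA of cultured mouse embryonic stem cells (mESCs) was sequenced in 45 libraries, 3 for each of 15 groups. The study's methods give mRNA or poly-A libraries, and for sorted cells low-input RNA libraries without naming a selection. In 3 experiments the cells were KH2 mESCs of a C57BL/6J x 129S1 background with a degron tag on EHMT2, the H3K9 methyltransferase also called G9a, so that the degrader dTAG removes the protein and DMSO is the vehicle. The time course held DMSO or dTAG for 24 h and 7 d, and the washout held DMSO for 15 d, dTAG for 15 d, and 7 d of dTAG followed by 8 d without it (Recovery). In both the time course and the washout, each group held 1 library of each of the clones E2-17, E2-20 and E2-K71.

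In the sorting experiment, EHMT2-dTAG cells that also carried a MERVL-GFP reporter received either agent for 72 h, and 200000 sorted cells per library gave the GFP-negative mESC groups and the GFP-positive 2-cell-like cell (2CLC) groups, each in DMSO and dTAG. The last experiment, for which the study's methods give n = 3 clonal lines, compared J1 cells (WT) with Dppa4 knockout (KO) cells. Both were kept for 48 h in UNC0638, which inhibits the enzymes EHMT1 and EHMT2, or in DMSO. The study's methods describe growth in FBS and LIF on inactivated mouse embryonic fibroblast feeders without setting any of the lines apart. For the 3 EHMT2-dTAG experiments the values are the authors' means of normalized counts, 1 per group, so no spread, test or SD can be given for them, and a level is compared only within an experiment because each table was normalized apart. Here "past the fold" means a ratio of at least 1.5 between the authors' means, each plus 1, for genes with a mean of at least 10 in either group.

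Glycolysis splits glucose into pyruvate in the cytosol and yields ATP without oxygen. Glucose enters through facilitated transporters such as the product of Slc2a1, is trapped by hexokinase, committed by phosphofructokinase, cleaved by aldolase, and yields ATP at the phosphoglycerate kinase and pyruvate kinase steps, after which lactate dehydrogenase can turn pyruvate into lactate. mESCs in serum and LIF are known for active glycolysis, and several of these genes are classical targets of the hypoxia-inducible factors and of MYC proteins. 2CLCs are the rare cells of an mESC culture that transcribe genes and retroviral elements of the 2-cell embryo, the stage of zygotic genome activation.

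The labels of the sorted and KO groups were checked against their markers. All 21 measured genes of a 2-cell stage list were past the fold and higher in 2CLC than in mESC, with a summed mean of 242016 against 1427 in DMSO and of 410389 against 16767 in dTAG. Of 16 pluripotency genes, 9 were past the fold and lower in DMSO 2CLC, while all 16 were above 0 in every group. Dppa4 had no read in the 6 Dppa4 KO libraries, where a count of 0 allows 2.62 to 3.48 normalized counts, and lay between 700.4 and 920.5 in the 6 WT libraries. The dTAG acts on EHMT2 protein, so RNA does not check it. The Dppa4 experiment held 8399885 to 12710949 gene reads per library. The depth of the other libraries is unknown here.

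The members lie on 7 chromosomes of mouse build GRCm38 (mm10). Slc2a1 is at chr4:119108711-119137983 (plus strand), Hk2 at chr6:82725025-82774454 (minus), Gpi1 at chr7:34201330-34230336 (minus), Ldha at chr7:46841475-46855627 (plus) and Aldoa at chr7:126795234-126800751 (minus). Pkm is at chr9:59656368-59679375 (plus), Hk1 at chr10:62268855-62379908 (minus), Pfkl at chr10:77986947-78010083 (minus), Pfkp at chr13:6579768-6648777 (minus) and Pgk1 at chrX:106187100-106203699 (plus). For all 10, RefSeq windows of GRCm38.p6 from 250 bases before to 50 bases after each annotated start were at hand, and a gene can have several. The letters ACGTG, the core to which hypoxia-inducible factors bind, stood on either strand in a window of 7 of 10 members (Slc2a1, Hk1, Hk2, Aldoa, Pgk1, Pkm and Ldha), against 21.8% of 27025 genes. GCGTG, the other form of that core, stood in 5 members against 35.2% of genes, and the MYC E-box CACGTG, which also holds ACGTG, in 1 member (Ldha) against 8.09%. The GC-box letters GGGCGG stood in 9 members, all but Hk1, against 38.2% of genes. A match is a description of letters and not of a bound site. The stretches upstream of the start of Hk2, Pgk1 and Pfkp are shown because Hk2 and Pfkp were among the 3 members with the lowest ratios in DMSO 2CLC and Pfkp and Pgk1 had the highest in Recovery. Every ACGTG or GCGTG on either strand is in capitals, and each runs 5′ to 3′ on the gene's strand.

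Hk2, chr6:82774455-82774704, minus strand: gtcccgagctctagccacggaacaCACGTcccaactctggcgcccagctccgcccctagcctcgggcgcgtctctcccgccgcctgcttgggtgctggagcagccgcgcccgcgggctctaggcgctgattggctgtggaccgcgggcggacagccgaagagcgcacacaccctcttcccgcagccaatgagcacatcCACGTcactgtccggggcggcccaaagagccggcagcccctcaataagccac

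Pgk1, chrX:106186850-106187099, plus strand: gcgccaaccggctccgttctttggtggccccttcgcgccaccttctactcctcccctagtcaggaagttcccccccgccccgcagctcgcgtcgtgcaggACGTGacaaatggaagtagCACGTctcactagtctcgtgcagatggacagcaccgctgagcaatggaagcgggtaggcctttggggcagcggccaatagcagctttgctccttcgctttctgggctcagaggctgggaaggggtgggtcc

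Pfkp, chr13:6648778-6649021, minus strand: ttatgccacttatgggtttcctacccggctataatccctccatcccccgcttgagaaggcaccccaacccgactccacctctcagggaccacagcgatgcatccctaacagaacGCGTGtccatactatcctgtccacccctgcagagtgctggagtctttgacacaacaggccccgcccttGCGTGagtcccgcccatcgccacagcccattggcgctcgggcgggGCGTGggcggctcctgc

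Both cores of Hk2 and both of Pgk1 are ACGTG, while the 3 capital stretches of Pfkp are GCGTG. Hk1, the member with the lowest ratio in DMSO 2CLC, is not shown. The 250 bases before its first annotated start hold 0 ACGTG and 0 GCGTG, as do those before the start of Gpi1. The matches of Hk1 counted above lie in the window of a later start.

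Several members share sequence with processed copies elsewhere in the genome, and the authors placed reads that fit many sites at 1 site at random and did not allow introns in the alignment. The share of the reads of a gene and its named copies that was counted at the copies was therefore taken for each group. For Pgk1 it was 77.6% to 78.7% in the time course, 78.5% to 79.3% in the washout, 76.6% to 82.6% in the sorted groups and 75.2% to 81.4% in the Dppa4 libraries, so most of its signal stands at copies such as Pgk1-rs7. For Gpi1 the share at the copy Gpi-ps was 63.8% to 69.0% in the time course and 40.5% to 45.0% in the sorted groups. For Ldha it was 14.7% to 15.8% and 3.79% to 5.88%. For Aldoa it was 11.6% to 12.1% in the time course, where Aldoart1 was counted, and at most 0.573% in each other experiment. The levels of Pgk1 and Gpi1 are therefore uncertain, and their ratios are given below also with the copies added.

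**Figure D1:**
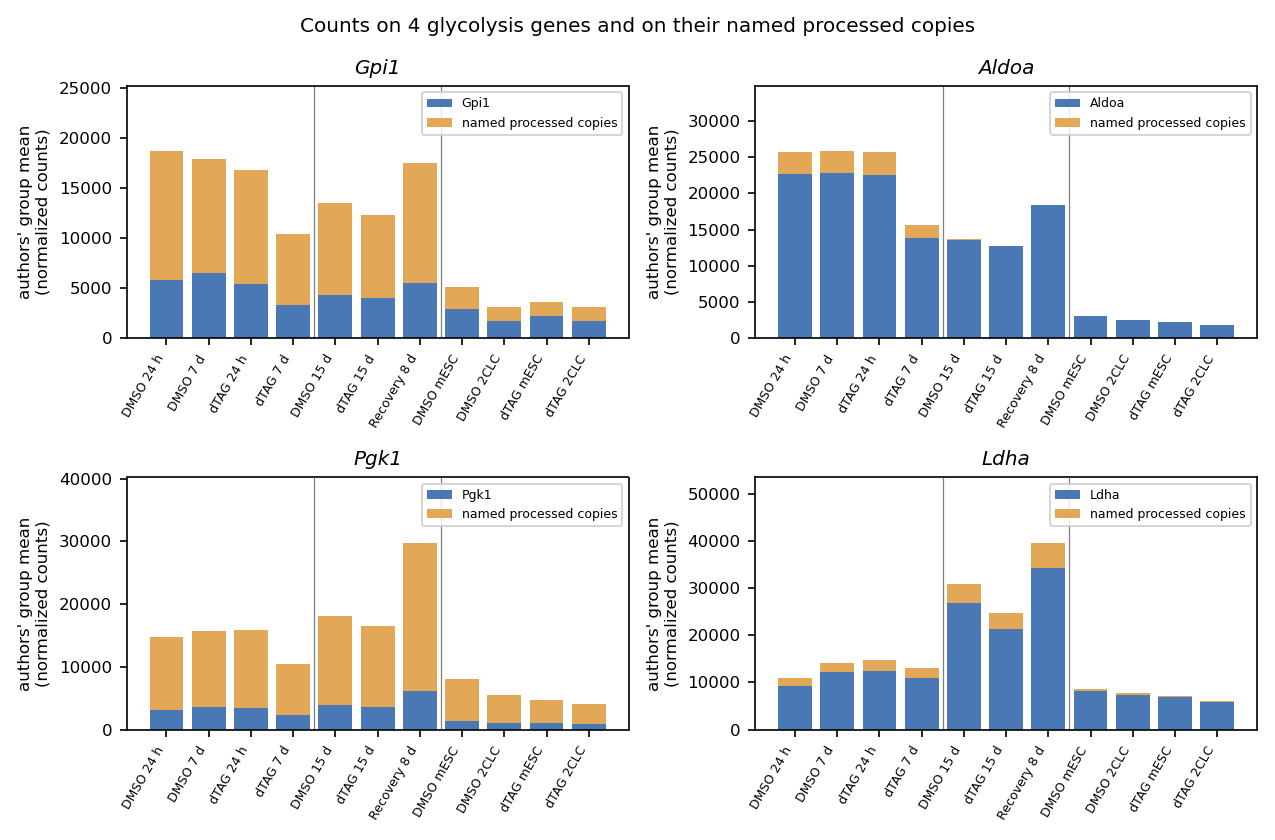
Mean normalized counts of Gpi1, Pgk1, Aldoa and Ldha (blue) and of their named processed copies (orange), stacked, in the 11 EHMT2-dTAG groups. Each experiment was normalized apart, and bars have no error because the values are the authors' means. For Pgk1 the copies hold 76.6% to 82.6% of the sorted signal.

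In the sorted cells, 5 of 10 members were past the fold and lower in 2CLC than in mESC in DMSO and 2 of 10 in dTAG, against 20.6% and 19.0% of genes. In DMSO, 9 of 10 members had a lower mean in 2CLC, and those past the fold were Hk1, Hk2, Gpi1, Pfkl and Pfkp, where 20.6% of 18303 genes were past the fold and lower. No member was past the fold and higher, as were 24.5% of genes. The median log2 ratio was -0.56 for the members and -0.02 for all genes. Of the genes with a mean of at least 100, 18.9% were past the fold and lower. At 2-fold, 2 members were lower (Hk1 and Hk2), as were 9.42% of genes.

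The 5 members past the fold act from the phosphorylation of glucose to fructose bisphosphate. The transporter Slc2a1 was within the fold and had means of 4668 in DMSO mESC, 3412 in DMSO 2CLC, 3789 in dTAG mESC and 2727 in dTAG 2CLC, so that both 2CLC groups were under both mESC groups, with log2 ratios of -0.45 in DMSO and -0.47 in dTAG. Hk1, a hexokinase of most tissues, had 647.0, 232.1, 486.1 and 241.8 in the same order. The 2.78-fold higher level in DMSO mESC is a log2 ratio of -1.48, and that in dTAG was -1.004. Hk2, the inducible hexokinase, had 3244, 1610, 2888 and 1708, a 2.01-fold higher level in DMSO mESC and log2 ratios of -1.01 and -0.76.

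Gpi1, which converts glucose 6-phosphate to fructose 6-phosphate, had 2938, 1732, 2162 and 1731. Its 2CLC means were nearly equal in DMSO and dTAG, and its log2 ratio was -0.76 in DMSO and -0.32 in dTAG, or -0.71 and -0.22 with Gpi-ps added. Pfkl, the liver-type phosphofructokinase subunit, had 709.9, 459.6, 438.9 and 315.9, and Pfkp, the platelet-type subunit, had 2366, 1257, 1310 and 952.6. For both subunits DMSO mESC stood above the other 3 groups, and dTAG mESC was close to DMSO 2CLC. Their log2 ratios of 2CLC over mESC were -0.63 and -0.91 in DMSO, and -0.47 and -0.46 in dTAG.

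Of the members that act after phosphofructokinase, none was past the fold in either treatment. Aldoa had 3002, 2430, 2255 and 1814, and Pgk1 had 1400, 987.1, 1098 and 854.2. Their log2 ratios in DMSO were -0.30 and -0.50 (-0.55 with the copies of Pgk1 added), that of Pgk1 being further from 0 than that of Slc2a1. Pkm, whose product makes pyruvate, was the member with a higher mean in 2CLC, with 13093, 14346, 12521 and 13997. Its log2 ratios were 0.13 and 0.16. Ldha had 8076, 7328, 6804 and 5776, with log2 ratios of -0.14 and -0.24.

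**Figure D2:**
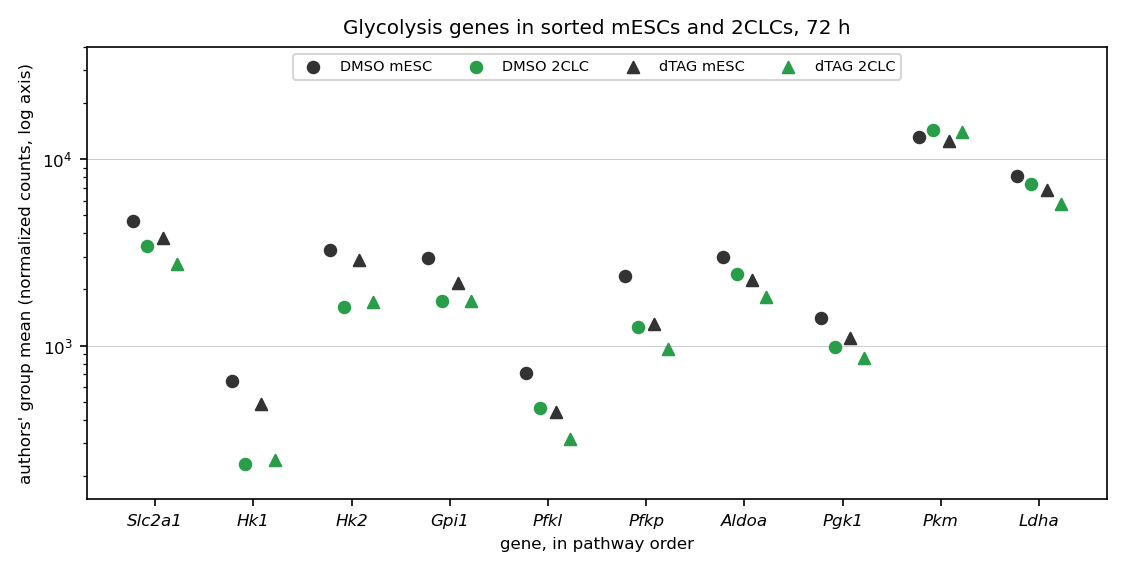
Authors' mean normalized count of each member in the 4 sorted groups, on a log axis of normalized counts, with circles for DMSO, triangles for dTAG, black for mESC and green for 2CLC. Points have no error because 1 mean per group was used, and the DMSO 2CLC point is under the DMSO mESC point in 9 of 10 members, Pkm being the exception.

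In dTAG the same comparison had 9 of 10 members lower and 2 past the fold (Hk1 and Hk2), where 19.0% of 18244 genes were past the fold and lower, with a member median of -0.41. At 2-fold 1 member was lower (Hk1), as were 7.55% of genes, so the share of members past the fold in dTAG was near that of all genes.

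In sorted mESC, 10 of 10 members had a lower mean in dTAG than in DMSO, with a median of -0.38, and 2 were past the fold (Pfkl at -0.69 and Pfkp at -0.85), where 8.53% of 17142 genes were. With its copies added Pgk1 moved from -0.35 to -0.78, past the fold. In sorted 2CLC, 8 of 10 were lower in dTAG with a median of -0.27 and 0 were past the fold, where 9.64% of 18281 genes were, and Hk1 and Hk2 were the members above 0, at 0.06 and 0.08. Beside these ratios, feeder fibroblast markers were past the fold and higher in dTAG for 10 of 14 in mESC (median 0.93) and for 12 of 14 in 2CLC (median 1.32), and 0 were lower in either. Their part in the members' ratios was not tested. The 4 comparisons of the sorted groups share groups and are not independent of each other.

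The scale of these ratios depends on how libraries are put on a common level, since the summed means of all genes differed between groups. Scaled to equal totals, the ratios of 2CLC over mESC moved by -0.15 in DMSO and -0.40 in dTAG, and members past the fold and lower became 7 and 9, against 27.0% and 41.2% of genes. Under that scaling Pkm was also lower in 2CLC, at -0.02 in DMSO and -0.24 in dTAG, so its direction flipped. The 2-cell stage list alone held 2.49% of the summed gene counts in DMSO 2CLC and 3.56% in dTAG 2CLC, against 0.0163% and 0.193% in the mESC groups. In bulk RNA, fewer cells of a type and less RNA per cell cannot be told apart. Feeder fibroblast markers summed to 7317 in DMSO mESC, 5403 in DMSO 2CLC, 9693 in dTAG mESC and 10940 in dTAG 2CLC, most of it Fn1 in DMSO mESC (5956). The study's methods describe the sort as gated on GFP fluorescence and name no gate against feeder cells for it. Fn1 had a lower mean in 2CLC (-0.98 in DMSO), while 8 of 14 measured markers were past the fold and higher in 2CLC in DMSO and 13 of 14 in dTAG, and Lum was at 0 in dTAG 2CLC. Their part in the result was not tested.

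The balance between alternative forms, compared per kilobase of exon, also differed. Hk2 stood above Hk1 in every group, 7.17 times in DMSO mESC, 9.92 times in DMSO 2CLC, 8.49 times in dTAG mESC and 10.1 times in dTAG 2CLC. Ldha over Ldhb, the heart-type subunit that favours pyruvate formation, was 5.88 in DMSO mESC and 18.0 in DMSO 2CLC, and 3.86 and 8.33 in dTAG. In each treatment the 2CLC value was the higher one, and Ldhb had a mean of 651.6 in DMSO mESC and 192.7 in DMSO 2CLC while Ldha differed little. Slc2a3, the high-affinity transporter, over Slc2a1 was 1.345 in DMSO mESC and 2.33 in DMSO 2CLC, and 1.17 and 2.42 in dTAG. Pfkp over Pfkl was 1.66 in DMSO mESC and 1.36 in DMSO 2CLC, and 1.486 and 1.502 in dTAG, so that the lower value of 2CLC in DMSO was not seen in dTAG. Per kilobase in DMSO mESC the order of the members was Pkm (2618), Ldha (2440), Slc2a1 (1331), Aldoa (1031), Pgk1 (623.9), Hk2 (543.6), Gpi1 (455.3), Pfkp (176.5), Pfkl (106.3) and Hk1 (75.8). This order depends on the length used, which joined the exons of all annotated transcripts. That length was 13.4 kb for Pfkp and 8.53 kb for Hk1, so their levels may be understated. The ratios between alternative forms rest on the same lengths. The order also depends on the copies. With their reads added and divided by the member's own length, Pgk1 was first (3581), ahead of Pkm and Ldha (2592), and Gpi1 (797.7) stood above Hk2. Without a spread it cannot be said which neighbours differ.

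The other genes of the pathway were listed too. Of 19 further glycolysis genes with a mean of at least 10, 8 were past the fold and lower in DMSO 2CLC and 0 higher, with a median of -0.42. The 8 included Ldhb at -1.75 and the muscle-type phosphofructokinase Pfkm at -0.92, but also genes with low means, such as Slc2a4 (13.1 and 24.3) at -0.84 and Eno3 (18.4 and 29.8) at -0.67. The main enzymes of the remaining steps were within the fold, Tpi1 at -0.33, Gapdh at -0.28, Pgam1 at -0.28 and Eno1 at -0.42, while Slc2a3 was 0.34 and the lactate exporter Slc16a1 0.20. Copies were not added for these genes, so their levels and ratios may be uncertain in the same way as those of Pgk1 and Gpi1. Eno1b, counted in the list under its own symbol, had a mean of 61368 in WT DMSO of the Dppa4 experiment, against 10892 for Eno1. How reads were shared between Eno1 and Eno1b was not tested, so Eno1b is not read here as an enolase apart from Eno1. Among 9 genes that control the pathway, the pyruvate dehydrogenase kinases Pdk1 (1129 in DMSO 2CLC and 2525 in DMSO mESC) and Pdk2 were lower, at -1.16 and -1.03. Tigar, which opposes the activation of phosphofructokinase, was higher at 0.70. Of 23 genes of pyruvate entry and the TCA cycle 2 were past the fold and higher (Mpc2 and Pdhx) and 2 lower (Sdhb and Sdhd), with a median of -0.07. Of 8 pentose phosphate genes 0 were higher and 2 lower (Pgls at -0.77 and Tkt at -0.64), and of 3 measured gluconeogenesis genes 0 were higher and 2 lower (Pck2 at -0.60 and G6pc3 at -0.76).

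Regulators of the pathway lay on both sides in this contrast. Of 18 hypoxia response genes 7 were past the fold and lower, among them Epas1, which encodes HIF-2α, at -1.73 and the oxygen sensors Egln3 at -1.498 and Egln1 at -1.03 and the low-level Car9 at -1.41, and 3 were higher, with P4ha2 at 4.73 (means of 2890 and 107.7) far above the others. Of 10 MYC family genes 4 were lower, with Mycn at -1.44, Mycl at -1.02 and Myc at -0.97, and 3 were higher (Mxd4, Mlxip and Mlxipl).

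In the time course, members lay on both sides of their DMSO level after 24 h of dTAG, with 6 of 10 above 0 and a median of 0.09. Of 10 members, 1 was past the fold and higher, Slc2a1, where 8.11% of 18451 genes were, and 0 were lower, as were 7.4% of genes. Slc2a1 had means of 4157 in DMSO 24 h, 6870 in dTAG 24 h, 6078 in DMSO 7 d and 6650 in dTAG 7 d. The DMSO 24 h group stood under the other 3, so the log2 ratio of 0.72 at 24 h was 0.13 at 7 d, and that of DMSO 7 d over DMSO 24 h was 0.55. Between the 2 DMSO groups 8 of 10 members were higher at 7 d and 0 were past the fold in either direction, where 9.95% of 18204 genes were. Hk1 was lower at 24 h, at -0.48, and Pkm, Ldha and Hk2 were higher, at 0.49, 0.42 and 0.42, values near those between the DMSO groups for Pkm (0.43) and Ldha (0.39).

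At 7 d, 5 of 10 members were past the fold and lower (Hk1, Gpi1, Pfkl, Aldoa and Pgk1), where 11.8% of 18602 genes were, and 6.98% of genes with a mean of at least 100. The median was -0.52 for the members and 0.01 for all genes. At 2-fold 1 member was lower (Hk1), as were 4.56% of genes. Hk1 had 1613 in DMSO 7 d and 775.2 in dTAG 7 d, a log2 ratio of -1.06, and its dTAG 7 d mean was the lowest of the 4 groups. Gpi1 had 6489 and 3315 (-0.97, or -0.78 with Gpi-ps added), and Pfkl had 2115 and 1203 (-0.81). Aldoa had 22832 and 13825 (-0.72), and Pgk1 had 3535 and 2314 (-0.61, or -0.58 with its copies). For these 5 genes dTAG 7 d was the group apart, under both DMSO groups and dTAG 24 h. Pfkp had 5115 and 3784 (-0.43), Pkm 29783 and 25328 (-0.23) and Ldha 12099 and 11022 (-0.13), while Hk2 had 5042 and 5878 (0.22) and Slc2a1 was given above. The ratio of Hk2 to Hk1 per kilobase was 3.10 in DMSO 24 h, 5.77 in dTAG 24 h, 4.47 in DMSO 7 d and 10.8 in dTAG 7 d.

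Other lists had lower means at 7 d too. Of 20 further glycolysis genes 6 were past the fold and lower and 0 higher, with Eno2, the neuronal enolase, at -1.73 (201.7 to 59.9) and Aldoc at -1.27. Of 18 hypoxia response genes 8 were lower and 0 higher, against 5 higher and 0 lower at 24 h, when Ndrg1 was 1.77 and Bnip3 0.81. The DMSO 24 h group was itself low for this list. In DMSO 7 d over DMSO 24 h, 16 of 18 genes were above 0 and 3 were past the fold and higher. The median there was 0.33, against 0.44 for dTAG over DMSO at 24 h. Myc had means of 87.9 in DMSO 7 d and 330.2 in dTAG 7 d, a log2 ratio of 1.90, and was the 1 gene of the 10 of the MYC family list past the fold and higher. In that list 2 were lower (Mxd3 at -0.70 and Mlxipl at -1.49), and the median was 0.05. Of 23 genes of pyruvate entry and the TCA cycle 0 were past the fold. Feeder fibroblast markers were higher in dTAG 7 d for 7 of 14 genes, with sums of 17008 in dTAG and 14207 in DMSO, and 2-cell stage genes summed to 11972 and 522.9. Their part in the members' ratios was not tested.

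In the washout, members in dTAG 15 d stood near DMSO 15 d and those in Recovery above both. At 15 d of dTAG 0 members were past the fold, where 13.9% of 17869 genes were in either direction, 7 of 10 were lower, and the median was -0.09, with Ldha lowest at -0.33. In Recovery all 10 were higher than in DMSO 15 d, with a median of 0.40, and 2 were past the fold (Pfkp and Pgk1), where 6.34% of 17365 genes were past the fold and higher. Against dTAG 15 d all 10 were higher with a median of 0.48, and 3 were past the fold (Pfkp, Pgk1 and Ldha), where 5.91% of 17936 genes were. Both comparisons share the Recovery group.

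Pfkp had means of 1889 in DMSO 15 d, 1975 in dTAG 15 d and 3654 in Recovery, so that the first 2 were close and Recovery was apart, at log2 ratios of 0.95 and 0.89. Pgk1 had 3895, 3553 and 6152, at 0.66 and 0.79, or 0.72 and 0.85 with its copies. Ldha had 26746, 21351 and 34180, at 0.35 and 0.68. Slc2a1 had 14023, 14711 and 20184, at 0.53 over DMSO. Hk1 differed least, with 469.4, 462.7 and 483.6, and Hk2 had 6047, 5731 and 6811. Gpi1 (0.36), Pfkl (0.51), Aldoa (0.43) and Pkm (0.26) lay between. Of 19 further glycolysis genes 5 were past the fold and higher in Recovery than in DMSO 15 d, among them Aldoc at 1.08, the lactate exporter Slc16a3 at 0.90 and Tpi1 at 0.63, and 0 were lower. Of 18 hypoxia response genes 6 were higher and 0 lower, with Ndrg1 at 1.60, Egln3 at 1.52 and Bnip3 at 1.498.

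Markers of the feeder cells were lower in Recovery, with a summed mean of 6031 against 12125 in DMSO 15 d and 15544 in dTAG 15 d, 12 of 14 past the fold against DMSO, 13 of 14 against dTAG, and Lum at 0 in Recovery. Their part in the members' higher means was not tested. With equal totals 10 of 10 members stayed above 0 against DMSO 15 d and 9 of 10 against dTAG 15 d.

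**Figure D3:**
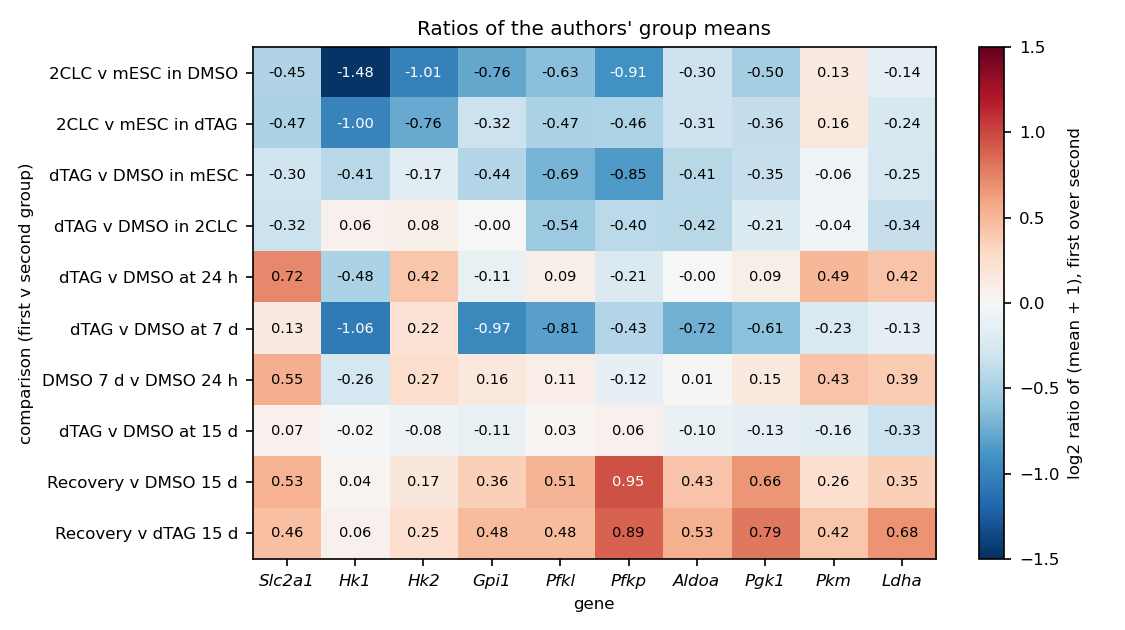
Log2 ratio of the authors' means, each plus 1, for every member (columns) in 10 comparisons (rows). Values are printed in the cells, colour runs from lower (blue) to higher (red), the rows for dTAG at 7 d and for 2CLC in DMSO each hold 5 members past the fold and lower, and both Recovery rows are above 0 in every column.

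Over the 11 EHMT2-dTAG groups, each centred within its experiment, the members followed their common mean to different degrees. Pearson's r with the mean of the other 9 was 0.952 for Pgk1, 0.928 for Pfkl, 0.904 for Pfkp, 0.881 for Gpi1, 0.875 for Aldoa, 0.689 for Ldha, 0.682 for Hk1, 0.577 for Slc2a1, 0.552 for Hk2 and 0.261 for Pkm. The points are group means that share experiments and scaling, so r is a description. By the same measure, the genes most like the members' mean among 8014 genes were Gprasp1 (0.973), Cebpg (0.972), Malt1 (0.968), Ankrd46 (0.966) and Slc25a36 (0.965).

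The Dppa4 experiment had 3 libraries per group and could be tested. Between Dppa4 KO and WT in DMSO, limma on log2(normalized count + 1) called 2 of 10 members higher in KO and 0 lower, where 2.39% of 17258 genes were called higher and 4.25% lower. All 10 log2 fold changes were above 0, with a median of 0.30 against -0.03 for all genes. In UNC0638, 3 members were called higher and 0 lower, where 1.77% of genes were called higher and 2.71% lower, 9 of 10 were above 0 and the median was 0.48.

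Hk1 was called in both treatments. Its normalized counts in DMSO were 488.7, 409.6 and 347.9 in WT and 714.3, 923.1 and 641.9 in KO, and in UNC0638 they were 339.9, 357.8 and 250.7 in WT and 578.5, 531.1 and 564.0 in KO. Every KO library was above every WT library in both treatments. The log2 fold change was 0.87 ± 0.20 (SE, n = 3 per group, limma, Benjamini-Hochberg adjusted p = 0.0164) in DMSO and 0.83 ± 0.20 (adjusted p = 0.0253 by limma) in UNC0638.

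Gpi1 had 2385, 2114 and 2832 in WT and 4125, 3926 and 3114 in KO with DMSO, and 1853, 1742 and 1974 in WT and 3227, 2314 and 3079 in KO with UNC0638. The groups did not overlap in either treatment, and the third KO library in DMSO and the second in UNC0638 were nearest to WT. The log2 fold change was 0.61 ± 0.17 (limma adjusted p = 0.0419) in DMSO and 0.62 ± 0.17 (limma adjusted p = 0.0491) in UNC0638. Both are near the threshold, and with Gpi-ps added both were 0.66, with limma adjusted p of 0.0243 and 0.0306.

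Pgk1 was called in UNC0638 alone. In DMSO its counts were 4627, 3913 and 4355 in WT and 5746, 5324 and 4782 in KO, and in UNC0638 they were 3294, 2908 and 3422 in WT and 4828, 4724 and 6301 in KO. KO was above WT without overlap in both treatments, by 0.30 ± 0.15 (limma adjusted p = 0.248) and by 0.71 ± 0.15 (limma adjusted p = 0.0152). Ldha had 13724, 11994 and 16361 in WT and 18934, 20619 and 29494 in KO with UNC0638, again without overlap, and missed the threshold (0.70 ± 0.20, limma adjusted p = 0.0550). With the replicate number as a block, 4 members were called in UNC0638, Ldha being added. Over all 17258 genes there were 1244 calls with that block and 772 without it. That block joins WT and KO libraries of the same number, whose deviations in UNC0638 correlated at 0.0627, -0.0864 and 0.124. Whether the KO difference itself depended on UNC0638 was tested by the interaction, at 0.41 ± 0.22 for Pgk1 and 0.42 ± 0.28 for Ldha (limma adjusted p = 0.775 and 0.783), so that a dependence is not shown for either.

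The libraries of KO and WT did not overlap, with KO higher, for 3 members in DMSO (Hk1, Gpi1 and Pgk1), where 13.5% of genes did not, and for 6 in UNC0638 (Hk1, Gpi1, Pfkl, Aldoa, Pgk1 and Ldha), where 11.6% did not. Slc2a1, Hk2, Pfkl, Pfkp, Aldoa and Pkm were not called in either treatment, with log2 fold changes of 0.05 (Pkm) to 0.54 (Pfkl) in DMSO and of -0.29 (Hk2) to 0.57 (Pfkl) in UNC0638. The calls rest on few libraries. No member was called in DMSO without WT DMSO replicate 2, without KO DMSO replicate 1 or without KO DMSO replicate 2, and none in UNC0638 without WT UNC0638 replicate 2. Without WT UNC0638 replicate 3, 1 member was called (Pgk1). In DMSO 1 member was called without WT DMSO replicate 1 or any single WT UNC0638 library (Hk1) and without WT DMSO replicate 3 (Gpi1). In UNC0638, 2 members were called without WT DMSO replicate 1 or 2, WT UNC0638 replicate 1, KO DMSO replicate 1 or 2 or KO UNC0638 replicate 3 (Hk1 and Pgk1), and without KO UNC0638 replicate 1 (Pgk1 and Ldha), so Gpi1 lost its call in UNC0638 in all of these. TMM scaling and the absence of the filter also left 2 (Hk1 and Pgk1). Feeder fibroblast markers summed to 6475 to 7592 in the KO libraries and 8842 to 12686 in the WT libraries, 14 of 14 tested markers had a fold change under 0 in DMSO and 4 were called lower, and Lum was at 0 in 11 of 12 libraries. Their part in the members' differences was not tested.

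For UNC0638 itself no member passed the test. In WT, limma called 0 of 10 members and 0.0% of 17258 genes, while 4 members and 1504 genes had an unadjusted p under 0.05, edgeR called 0 genes and DESeq2 19, none of them a member. Of 10 members 8 were below 0, with a median of -0.39 against 0.00 for all genes. Slc2a1 had 4406, 3503 and 4809 in DMSO and 3115, 3516 and 4251 in UNC0638, with overlap, while all UNC0638 values of Pgk1, given above, were under all DMSO values, with a log2 fold change of -0.42 ± 0.15 (limma adjusted p = 0.563). UNC0638 libraries lay under all DMSO libraries for 3 members (Gpi1, Aldoa and Pgk1), where 10.0% of genes did.

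In Dppa4 KO cells limma called 0 of 10 members in UNC0638 against DMSO, where 0.585% of genes (87 higher and 14 lower) were called. There 3 members had an unadjusted p under 0.05, 9 of 10 were below 0 and the median was -0.30, and edgeR and DESeq2 called 0 members. Aldoa had 6580, 7653 and 5904 in DMSO and 5046, 4471 and 5728 in UNC0638, with no overlap, at -0.40 ± 0.16 (limma adjusted p = 0.234). UNC0638 lay under DMSO without overlap for 4 members (Slc2a1, Hk1, Hk2 and Aldoa), where 8.03% of genes did. The difference of the UNC0638 effect between KO and WT was called for 0 members by limma, edgeR and DESeq2, and for 0.0% of genes by limma. An unadjusted p under 0.05 was found for 0 members and 1076 genes. The SE of this difference lay between 0.22 and 0.32 for the members.

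**Figure D4:**
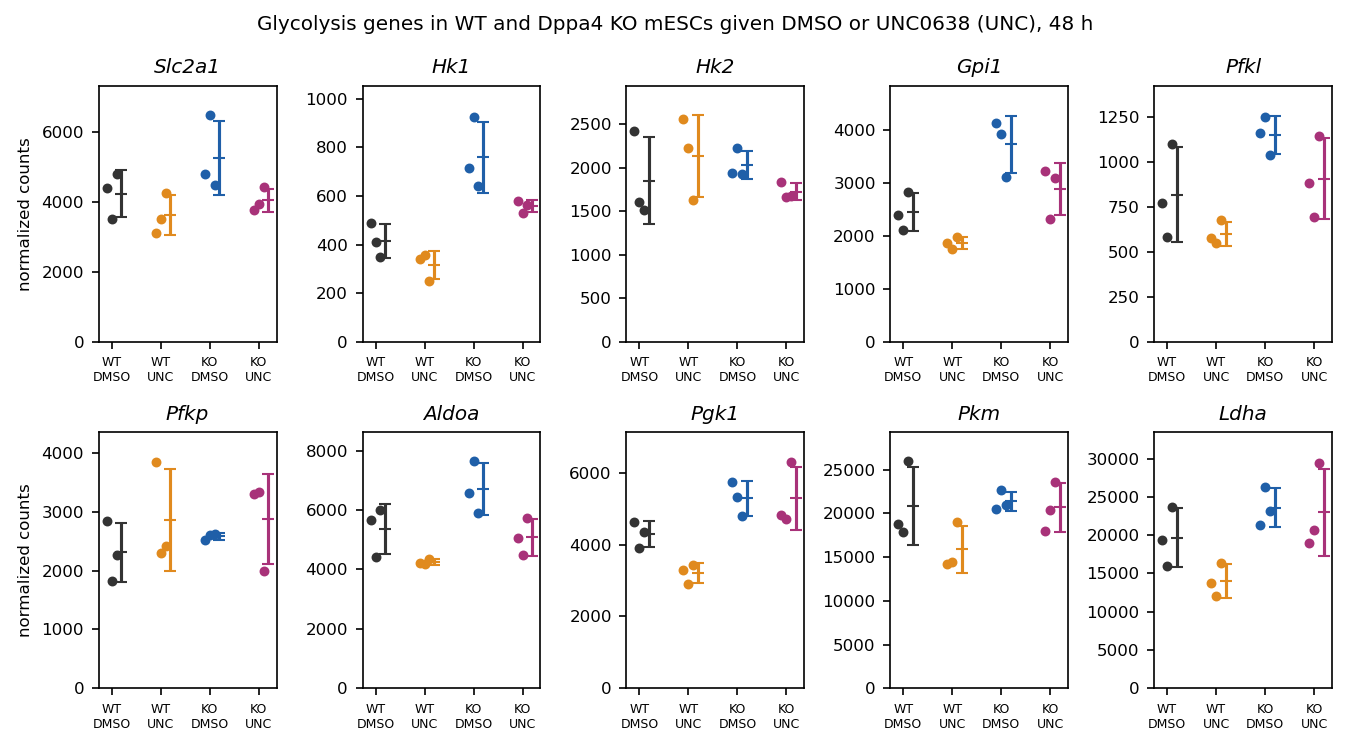
Normalized count of each member in the 12 libraries of the Dppa4 experiment, 1 point per library, with a short line at the mean of 3 and ± SD as error bars. Each panel has its own axis from 0, and every Hk1 point of KO lies above those of WT in the same treatment.

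Of 19 further glycolysis genes tested between KO and WT in DMSO, 2 rose (Ldhb by 1.07, limma adjusted p = 0.0171, and Aldoc by 0.89, limma adjusted p = 0.0374) and 1 fell, the lactate and pyruvate carrier Slc16a1, by 0.92 on the log2 scale (limma adjusted p = 0.00514). Slc16a1 also fell in UNC0638, by 0.87 (limma adjusted p = 0.00919). The carboxylase Pcx, which feeds oxaloacetate to gluconeogenesis and the TCA cycle, rose by 1.22 in DMSO (limma adjusted p = 0.00559) and by 0.92 in UNC0638 (limma adjusted p = 0.0300). In DMSO 1 of 9 control genes rose, the pyruvate dehydrogenase kinase Pdk2, by 1.32 (limma adjusted p = 0.0265), and in UNC0638 0 of 9 were called, with 0 at an unadjusted p under 0.05. Ldhb and Aldoc were not called in UNC0638, at 0.84 and 0.73 (limma adjusted p = 0.0597 and 0.0944). Of 18 hypoxia response genes 3 rose in DMSO, Ndrg1 by 1.53 (limma adjusted p = 0.000361), Epas1 by 1.0 and Egln1 by 0.80, and 0 fell. In UNC0638 Ndrg1 and Epas1 rose, by 1.43 and 1.0, and Egln1 was not called (0.59, limma adjusted p = 0.117). In DMSO 0 of 23 genes of pyruvate entry and the TCA cycle and 0 of 8 pentose phosphate genes passed the test by limma, with 4 and 0 at an unadjusted p under 0.05.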

How the data were processed

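The authors trimmed reads with Trim Galore 0.6.7, aligned them to mm10 (GRCm38) with STAR 2.7.10, introns not allowed and a read with many sites written at 1 random site, and counted genes of GENCODE vM25 with TEcounts at its default settings. The deposited signal values are counts that the authors divided by DESeq2 1.34.0 size factors (R 4.1.0), as 1 mean per group in 3 experiments and per library in the Dppa4 experiment. Columns holding the authors' own fold changes and p-values were not used. In the group tables, which give no spread, log2 ratios of means plus 1 were taken over genes with a mean of at least 10 in either group, and a ratio of 1.5 was the fold.

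In the Dppa4 experiment 100% of values gave whole reads (tolerance 0.001). limma 3.58.1 with a trend was fitted to log2(normalized count + 1) in a model of 4 groups over 17258 genes passing the edgeR 4.0.16 filter, with Benjamini-Hochberg adjustment over all of them in each contrast and a call at an adjusted p under 0.05. This pseudocount understates the change of low genes. edgeR and DESeq2 1.42.0 ran on the recovered reads as alternatives, and the method was tested on simulated data. Other alternatives were TMM scaling, a pseudocount of 5, no filter, each library left out, a replicate block, equal totals, a fold of 2, and, chosen after seeing the data, the named copies added and a block within each cell line. p-values measure the spread between 3 libraries per group, and no source ties a replicate number to a clone. Deviations of same-numbered WT libraries correlated at 0.246, 0.103 and 0.431 and those of KO libraries at 0.154, -0.0923 and 0.0129. Pairs of unlike number within a line lay between -0.300 and 0.0447 in WT and between -0.128 and 0.119 in KO. Same-numbered pairs thus stood above unlike ones in WT and overlapped them in KO. Whether the numbers pair libraries was not tested, and the main fit used no pairing. Levels per kilobase used the summed exon length of GENCODE gene models. Promoter windows and strands are from RefSeq GRCm38.p6. The members, lists and named genes were chosen with earlier results of these data known. All 10 members are named, with up to 4 genes of each further list by the size of their ratio in DMSO 2CLC against mESC and a fixed set (Gapdh, Eno1, Tpi1, Pgam1, Slc2a3, Pfkm, Ldhb and Slc16a1). Further genes were named after their values were seen. Software was R 4.3.3 and Python 3.11.15.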

Additional observations from a re-analysis of the deposited data

How the results depend on the processing

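The 3 experiments with group means carry no replicate error, and most alternatives left the member counts within 1.5 times their value (160 of 182). Without a test, a fold of 2 in place of 1.5 left 2 members past the fold for 2CLC against mESC in DMSO, 1 in dTAG, 1 at 7 d, and 0 for dTAG against DMSO in mESC, at 24 h and for Recovery against DMSO or dTAG. Equal totals gave 9 members past the fold and lower for 2CLC against mESC in dTAG, where 41.2% of genes were. For dTAG against DMSO in 2CLC they gave 4 members lower, where 19.4% of genes were. In the Dppa4 experiment, requiring 2-fold left 0 members called for KO against WT in DMSO and 0 in UNC0638. Without the filter, which tests more genes, 1 was called in DMSO. Leaving out each library in turn gave 0 to 2 members in DMSO and 0 to 3 in UNC0638, the libraries being named above.

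With the replicate number as a block, 2 members were called for KO against WT in DMSO and 4 in UNC0638, and the calls for UNC0638 itself and for the interaction stayed at 0. Over all genes, KO against WT in DMSO had 1145 calls, 1902 by DESeq2 and 1996 with the block, and in UNC0638 772, 1433 and 1244. UNC0638 in KO had 101 calls, 635 by DESeq2, 44 by edgeR, 12 without the filter, 346 with the block, 306 with a block within each line, 2 without KO UNC0638 replicate 2, which stood apart on the second principal component, and 615 without KO UNC0638 replicate 1. Leaving out libraries gave 319 to 1822 calls for KO against WT in DMSO and 201 to 890 in UNC0638. The cause of these shifts was not tested.

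Signs turned for member values that were not called. For UNC0638 in KO, Pgk1 was 0.000696 by edgeR and 0.00242 by DESeq2, and leaving out libraries gave -0.14 to 0.0659 for Pgk1, -0.25 to 0.069 for Ldha, -0.0103 to 0.36 for Pfkp and -0.16 to 0.0398 for Pkm. For KO against WT, Pkm in DMSO ranged from -0.0495 to 0.22, and Pfkp in UNC0638 was -0.00384 by DESeq2 and ranged from -0.13 to 0.26. For the interaction, Gpi1 was -0.00712 with TMM and -0.00227 with Gpi-ps added, and leaving out libraries gave -0.11 to 0.16 for Gpi1, -0.17 to 0.0555 for Aldoa, -0.19 to 0.12 for Hk1, -0.20 to 0.26 for Pfkl, -0.33 to 0.0716 for Pfkp and -0.24 to 0.0212 for Slc2a1. The sign of the Gpi1 ratio of DMSO 7 d over DMSO 24 h also turned with Gpi-ps added, from 0.16 to -0.06.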

Other observations

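In sorted mESC, dTAG against DMSO left 5 of 19 further glycolysis genes past the fold and lower and 0 higher, with Aldoc, the brain-type aldolase, at means of 57.0 and 171.8 (-1.58), Eno2 at -1.33 and the lactate exporter Slc16a3 at 729.6 and 1466 (-1.01). Of 18 hypoxia response genes 6 were lower (Bnip3 at -1.34, Egln3 at -1.31, Ndrg1 at -1.20, Vegfa at -0.93, Egln1 at -0.69 and Car12 at -0.63) and 1 was higher (P4ha2 at 1.15). Genes of pyruvate entry and the TCA cycle were on the other side, with 20 of 23 above 0, a median of 0.15 and 0 past the fold in either direction. The values are the authors' means and carry no test.

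At 15 d of dTAG, Ldhb had a mean of 1950 against 1157 in DMSO (0.75), and the muscle-type enolase Eno3 had 149.9 against 296.5 (-0.98). Of 18 hypoxia response genes 3 were higher (Epas1, P4ha2 and Ankrd37) and 0 lower.

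The second row with the symbol Aldoa, at chr7:126800790-126809108 on the minus strand, had means of 22.4 in DMSO mESC, 5.15 in DMSO 2CLC, 10.0 in dTAG mESC and 5.47 in dTAG 2CLC, and of 25.0, 22.6, 20.3 and 9.44 in DMSO 24 h, DMSO 7 d, dTAG 24 h and dTAG 7 d. In the washout it lay between 23.7 and 25.4 in all 3 groups.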
